A study of Mus musculus with 4 samples.

Results

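The autophagy and lysosome genes described here are 47 genes chosen by name. They cover the steps from the start of an autophagosome to the enzymes of the lysosome. Of the 47 genes, 39 have a value in both deposited tables of female LF2 embryonic stem cells (ESCs), among 9779 genes with a value in all. The other 8 (*Becn1*, *Atg14*, *Atg3*, *Atg5*, *Gabarap*, *Tfe3*, *Mitf* and *Mcoln1*) were not analysed here. LF2 is a female mouse ESC line of the 129/J strain that was grown on feeder cells and passaged without them before the treatments. RNA was sequenced from 4 cultures, 1 for each condition, and each culture was treated for 24 hr. The conditions were PBS+DMSO (both vehicles), PBS+GSK-J4 (10 μM GSK-J4), AA+DMSO (50 μg/ml L-ascorbic acid, AA) and AA+GSK-J4 (both agents at the same doses). GSK-J4 enters cells and inhibits histone demethylases of the JmjC family, and AA is a cofactor that can raise the activity of such enzymes.

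Autophagy encloses parts of the cytoplasm in a double membrane, the autophagosome, which then fuses with the lysosome. The ULK1 kinase complex and phosphoinositide-binding WIPI proteins start the membrane, a conjugation system attaches ATG8 proteins to its lipids, and receptors such as p62 tie cargo to the ATG8 proteins. The lysosome is kept acidic by the V-ATPase, a proton pump, and digests its cargo with hydrolases. TFEB and its MiT/TFE relatives are transcription factors known to drive many of these genes through a short E-box called the CLEAR element.

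Levels are given as FPKM, a fragment count scaled to the length of the exons and to the mapped fragments of the library, summed over the rows of a gene. Where 4 values of a gene are listed without names, they stand in the order of the conditions above. Changes are given as a log2 ratio of (FPKM + 1) between a pair of libraries, and for weakly expressed genes this scale shows less than the change in FPKM. With 1 library per condition there is no replicate error and no test, so each comparison is between libraries. A member was counted as higher or lower when it passed 1.5-fold on this scale (0.58 in log2), among genes that reached an FPKM of 1 in at least 1 of the libraries compared. The share of all genes past the same fold is given beside each count as background. The median log2 ratio of all genes was -0.17 for GSK-J4 without AA and -0.16 with AA, and it fell further with expression. For this reason the main members are also set against the median of the 300 genes closest to them in mean expression. Of all genes, 50.3% lay above this median for GSK-J4 without AA and 50.3% with AA. GSK-J4 was compared with DMSO within 1 table, whereas a comparison of AA with PBS crosses the 2 tables, whose scaling to each other is not stated.

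The E-box of the CLEAR element, TCACGTGA, was searched on both strands in the promoters of RefSeq (GRCm38.p6), from 250 bases before to 50 after a start site. A promoter was at hand for 38 of the 47 members, and 8 of them (21.1%) held the motif, compared with 1.12% of 27025 genes and 2.22% of the 7192 genes that reached an FPKM of 1. Among the 31 members with both a promoter and a value, 6 (19.4%) held it. Many of the listed genes are known to be driven through this element, so a high share follows from their choice and is not a result of these libraries. These 6 windows are shown because they carry the element that links TFEB to lysosome genes, with the 8 motif bases in capitals and 5′ to 3′ on the strand of the gene. The promoter of *Gaa*, the member with the highest log2 ratio in both GSK-J4 comparisons, holds the 6-base core CACGTG and is shown for comparison.
Ctsd, chr7:142387889-142387956, minus strand, motif starting 99 bases before the start site: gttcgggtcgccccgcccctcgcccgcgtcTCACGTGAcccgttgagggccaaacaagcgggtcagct
Ctsa, chr2:164833730-164833792, plus strand, 2 motifs, the first 13 bases before the start site: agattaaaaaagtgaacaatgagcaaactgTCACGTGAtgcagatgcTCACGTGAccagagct
Gla, chrX:134601163-134601255, minus strand, 2 motifs, the first 228 bases before the start site: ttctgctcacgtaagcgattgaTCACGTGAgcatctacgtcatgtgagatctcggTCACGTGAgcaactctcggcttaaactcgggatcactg
Atp6v0d1, chr8:105566045-105566098, minus strand, motif starting 4 bases before the start site: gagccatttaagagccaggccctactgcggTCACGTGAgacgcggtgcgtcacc
Atp6v0e, chr17:26676368-26676415, plus strand, motif starting 2 bases after the start site: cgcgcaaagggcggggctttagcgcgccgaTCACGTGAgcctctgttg
Atp6v1a, chr16:44139354-44139421, minus strand, motif starting 132 bases before the start site: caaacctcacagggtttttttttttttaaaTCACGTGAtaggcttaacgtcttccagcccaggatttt
Gaa, chr11:119267793-119267858, plus strand, core starting 140 bases before the start site: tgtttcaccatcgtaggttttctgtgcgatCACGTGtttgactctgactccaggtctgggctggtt

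The core CACGTG lies inside TCACGTGA, so the searches overlap. It was found in 14 of the 38 members (36.8%), compared with 8.09% of all genes in the promoter table and 12.6% of the expressed ones. The 6 members with the 8-base motif did not share a response to GSK-J4. Their log2 ratios ran from -0.18 to 1.10 without AA, with a median of 0.14, and from -0.11 to 1.13 with AA, with a median of 0.25. The 25 members without the motif had medians of 0.30 and 0.21. A further pair of elements was searched because factors of the stress response are known to bind them. The CARE of ATF4 (TGATGNAA) was in 2 of 38 members (5.26%), 4.51% of all genes and 2.45% of the expressed genes, and the antioxidant response element of NRF2 (TGACNNNGC) was in 10 of 38 members (26.3%) and 14% of all genes, or 17.2% of the expressed genes.

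The members together held more FPKM in the GSK-J4 libraries. Their sum was 1448 with DMSO and 1746 with GSK-J4 in cells without AA, and 1496 and 1950 in cells with AA. Much of the rise in the sums came from the abundant genes *Ctsd* and *Sqstm1*. The median FPKM of the members differed little, at 23.8 and 24.2 without AA and 22.1 and 25.4 with AA. As a share of the FPKM of all genes, the members made up 0.402%, 0.634%, 0.437% and 0.719%, and the total over all genes was lower in both GSK-J4 libraries. The members had median log2 ratios of 0.20 (without AA) and 0.21 (with AA, or 0.19 without *Atp6v1h*), compared with the negative medians of all genes given above. Without AA, 6 of 38 members were at least 1.5-fold higher (background 11.6% of genes) and 2 were at least 1.5-fold lower (background 19.3%). With AA, 8 of 39 were higher (background 10.1%) and 2 were lower (background 17.8%). At 2-fold, 3 members were higher and 1 lower without AA, where 4.96% and 3.5% of all genes passed, and 4 were higher and 1 lower with AA, where 4.13% and 3.38% passed.

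The members higher in both comparisons were *Wipi1*, *Sqstm1*, *Lamp2*, *Ctsd*, *Gaa* and *Hexa*, which is 15.4% of the 39, whereas 7.38% of 9363 genes were higher in both. *Gabarapl2* and *Tfeb* were lower in both, which is 5.13% of the members and compares with 13.2% of all genes. *Neu1* and *Atp6v1h* passed the threshold with AA but not without it, and that difference was not tested. Just inside the threshold without AA was *Sqstm1* at 0.64, and just outside it *Npc1* at 0.55. With AA, *Neu1* was just inside at 0.63 and *Atp6v0a1* just outside at 0.57. On the lower side, *Gabarapl2* stood at -0.70 and -0.68, and the next member, *Atp6v1b2*, at -0.41 and -0.30. How many members pass depends on how the libraries are scaled, and so does the background. Centring or rescaling gave between 11 and 18 members higher and 1 lower without AA, where 12.5% to 21.5% of all genes were higher and 4.7% to 10.4% lower. With AA it gave between 14 and 18 higher and 1 lower, where 11.2% to 19.3% of all genes were higher and 5.51% to 10.2% lower.

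**Figure D1:**
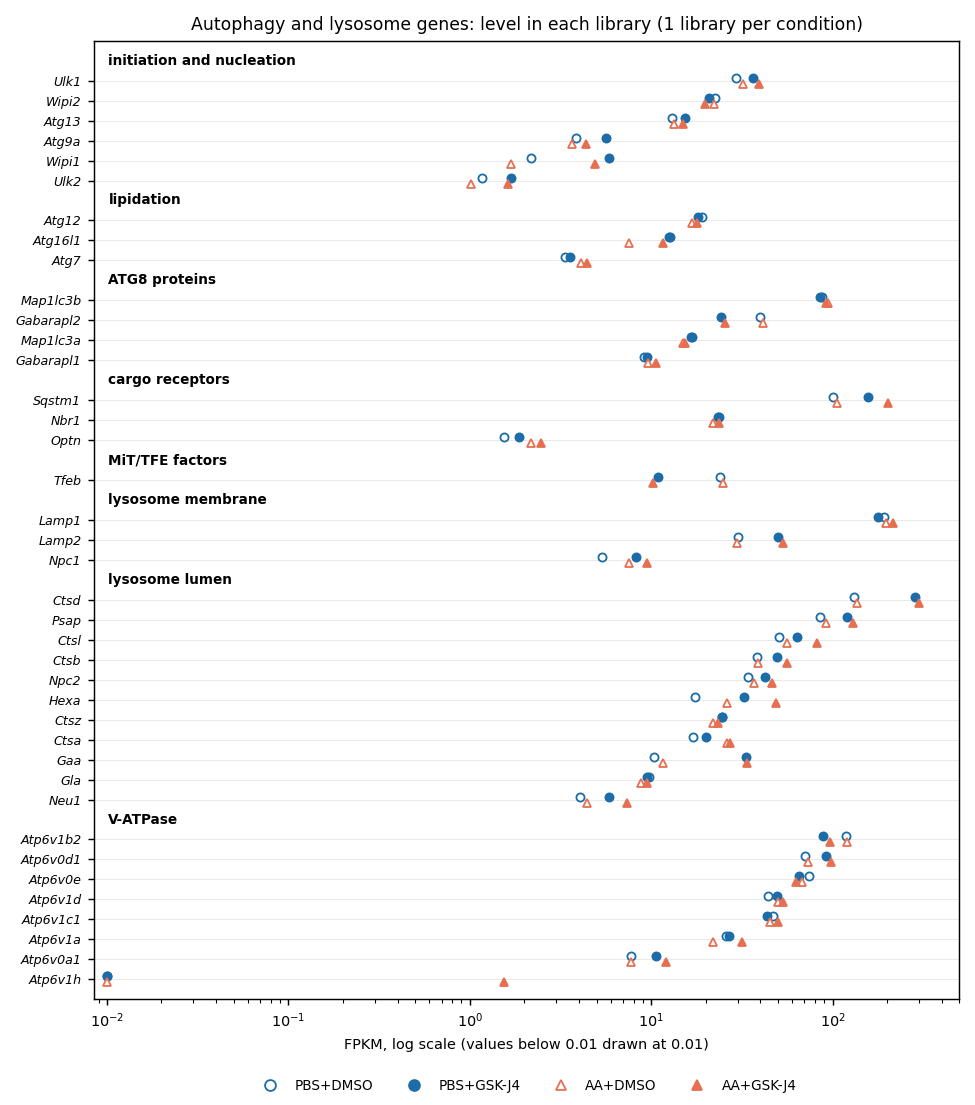
FPKM of each of the 39 members in the 4 libraries on a log axis, grouped by role, with 1 symbol per library and no error bars because each condition has 1 library. Filled symbols (GSK-J4) lie to the right of open ones (DMSO) for most lysosome lumen genes and to the left for *Gabarapl2*, *Tfeb* and *Atp6v1b2*.

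The lysosome lumen genes encode the hydrolases and their helpers. Of the 11 in the list, 10 had a higher FPKM with GSK-J4 without AA and all 11 with AA, compared with 37.0% and 37.8% of all genes. The summed FPKM of the 11 went from 423 to 684 and from 459 to 765, and *Ctsd* made up the largest part of both rises. The median log2 ratios of the 11 were 0.37 and 0.53, and each of them lay above the median of the genes nearest to it in expression in both comparisons.
*Gaa* (chr11:119266773-119285507), the acid alpha-glucosidase that degrades glycogen in lysosomes, was at 10.4, 33.2, 11.6 and 33.7 FPKM. Both GSK-J4 libraries were well above both DMSO libraries, by 3.20-fold without AA and 2.91-fold with AA in FPKM. *Ctsd* (chr7:142375914-142388028), the aspartic protease cathepsin D, was at 132, 283, 137 and 301 FPKM, so it was 2.15-fold and 2.20-fold higher. It has the highest level of the lumen genes in all 4 libraries, and its log2 ratios were 1.76 and 1.72 above the median of the genes nearest in expression. GENCODE M21 places exons of another gene, *Gm49369*, over 227 bases of *Ctsd* on the same strand.
*Hexa* (chr9:59539542-59565099), the alpha subunit of the beta-hexosaminidase that degrades gangliosides, was at 17.5, 32.4, 26.1 and 48.9 FPKM. On the log2 scale it was 0.85 higher with GSK-J4 without AA and 0.88 higher with AA, and the AA libraries were also above the PBS libraries, by 0.55 in DMSO and 0.58 in GSK-J4. Its levels therefore differ in all 4 libraries, with the highest in AA+GSK-J4. *Tmem202*, on the opposite strand, shares 255 exonic bases with *Hexa*. Whether the libraries kept strand is not stated, so reads of such partners cannot be told apart. The same limit holds for other members whose exons overlap those of another gene. The longest such overlaps were 1072 bases in *Atg9a* (*Gm29253*, same strand), 977 in *Ctsl* (*Gm47123*, opposite strand) and 774 in *Ctsb* (*Fdft1*, opposite strand).

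Among the other lumen genes, the shifts were smaller. *Neu1*, a sialidase, was at 4.04, 5.88, 4.40 and 7.35 FPKM, with log2 ratios of 0.45 and 0.63. *Psap*, whose product is cut into activators of sphingolipid breakdown, had ratios of 0.50 and 0.49 at 84.7 to 129 FPKM. The cysteine cathepsins *Ctsb* and *Ctsl* had ratios of 0.37 and 0.31 without AA, and 0.53 and 0.54 with AA. *Npc2*, which hands cholesterol from the lumen to the membrane, had 0.31 and 0.33. *Ctsa*, which protects the sialidase and galactosidase, had 0.22 and 0.04. *Ctsz*, another cysteine cathepsin, had 0.01 and 0.09, and *Gla*, the alpha-galactosidase, had -0.04 and 0.10. *Ctsz* and *Gla* were thus within 0.10 of no difference in both comparisons, although they belong to the same compartment as *Gaa*.

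In the lysosome membrane, the paralogs *Lamp1* and *Lamp2* moved differently. *Lamp2* (chrX:38404871-38456449), whose product lines the lysosome and takes part in its fusion with autophagosomes, was at 30.2, 50.1, 29.8 and 53.4 FPKM, with log2 ratios of 0.71 and 0.82. *Lamp1*, the most abundant member of the list in both DMSO libraries, was at 192, 177, 198 and 215 FPKM, with ratios of -0.12 and 0.12. *Lamp2* thus separated GSK-J4 from DMSO in both pairs, whereas the *Lamp1* libraries as deposited were in the opposite order without and with AA. Although its ratios were near 0, *Lamp1* lay 0.55 and 0.71 above the genes nearest in expression. *Npc1*, the membrane partner of *Npc2* in cholesterol export, was at 5.36, 8.29, 7.53 and 9.49 FPKM, with ratios of 0.55 and 0.30.

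The V-ATPase subunits stood on both sides of 0 as deposited. Without AA, 4 of the 7 subunits that passed the filter were above 0 and 3 below, with a median of 0.06. None of the 7 was past 1.5-fold, where 11.6% of all genes were higher and 19.3% lower. With AA, 6 of 8 were above 0 and 2 below. Of all genes, 37.0% and 37.8% were above 0. *Atp6v1h* is among the 6 only through its value in AA+GSK-J4, as it was listed at 0 with DMSO. Without it, the 3 subunits of the membrane sector V0 had medians of 0.37 without AA and 0.41 with AA. The 4 subunits of the catalytic sector V1 had -0.03 and 0.12. All of these lay above the genes nearest in expression in both comparisons, by medians of 0.56 and 0.71 for V0 and of 0.38 and 0.57 for V1. The FPKM of all 8 subunits summed to 388 with DMSO and 377 with GSK-J4, and to 385 and 406 in the presence of AA. *Atp6v1b2*, a subunit of the catalytic V1 sector and the most abundant of these genes, was at 119, 88.9, 119 and 96.7 FPKM, which is lower with GSK-J4 in both pairs (-0.41 and -0.30). The V0 subunit *Atp6v0d1*, which couples the membrane sector to the stalk, was at 70.5, 91.7, 73.4 and 97.9 FPKM, which is higher in both pairs (0.37 and 0.41). These subunits of 1 pump therefore stood on opposite sides of 0, but *Atp6v1b2* lay 0.20 and 0.25 above the genes nearest in expression, so its sign depends on the scaling.
*Atp6v0a1*, the membrane subunit that forms the proton path, had ratios of 0.41 and 0.57, *Atp6v1d*, of the rotor, had 0.18 and 0.10, and *Atp6v0e* had -0.18 and -0.11. *Atp6v1a*, the catalytic subunit, had 0.06 without AA and 0.50 with AA, and *Atp6v1c1* had -0.12 and 0.15. *Atp6v1h*, a regulatory subunit, was listed at 0, 0.000812, 0 and 1.55 FPKM. A value of 0 can be a failed estimate, and no fold is given for this gene, but it counts among the 8 members called higher with AA.

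**Figure D2:**
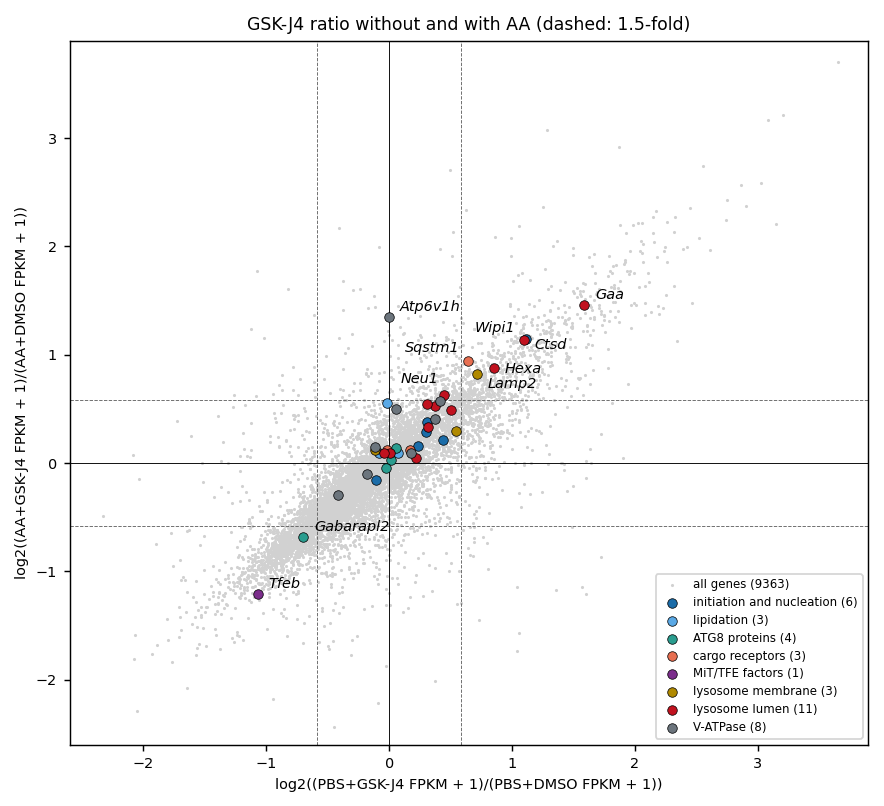
Log2 ratio of GSK-J4 over DMSO without AA (x axis) and with AA (y axis), with 1 point per gene, all 9363 expressed genes in grey and the 39 members coloured by role. Most members lie along the diagonal, with *Gaa*, *Ctsd* and *Wipi1* at the upper right, *Tfeb* at the lower left, and *Atp6v1h*, which has no usable ratio because it was listed at 0 with DMSO, off the diagonal.

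The genes that start the autophagosome were led by *Wipi1* (chr11:109573321-109611406), which encodes a phosphoinositide-binding protein of the forming membrane. *Wipi1* was at 2.17, 5.86, 1.69 and 4.93 FPKM, with log2 ratios of 1.12 and 1.14. Its paralog *Wipi2*, whose product recruits the lipidation machinery, was at 22.6, 20.9, 22.1 and 19.8 FPKM, with ratios of -0.11 and -0.15. The paralogs thus moved in opposite directions in both pairs, and *Wipi2* remained the more abundant, but *Wipi2* was above the genes nearest in expression (by 0.26 and 0.14), so its direction depends on the scaling. *Ulk1*, the kinase that starts autophagy and the most abundant gene of this role, was at 29.3, 36.2, 32.0 and 39.2 FPKM, with ratios of 0.30 and 0.28. *Ulk2* had 0.30 and 0.38 at a low level of at most 1.69 FPKM, *Atg13*, a partner of ULK1, had 0.23 and 0.16, and *Atg9a*, which brings lipid to the growing membrane, had 0.44 and 0.21. All 6 genes of this role were above the genes nearest in expression in both comparisons, and 5 of 6 were above 0, compared with 37.0% and 37.8% of all genes.

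The lipidation genes showed little difference without AA. *Atg7*, the E1-like enzyme of the pathway, had ratios of 0.07 and 0.09, and *Atg12*, the ubiquitin-like protein it activates, was at 19.2, 18.0, 16.7 and 17.9 FPKM, with ratios of -0.09 and 0.10. *Atg16l1*, which directs lipidation to the membrane, was at 12.7, 12.5, 7.57 and 11.6 FPKM, with ratios of -0.02 and 0.56. The AA+DMSO library was the lowest and the other 3 lay close together.

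The ATG8 proteins coat the autophagosome and bind cargo receptors. *Map1lc3b*, the LC3 gene with the highest level, was at 87.3, 85.7, 94.4 and 91.6 FPKM, with ratios of -0.03 and -0.04. *Map1lc3a* had 0.02 and 0.03, and *Gabarapl1* was at 9.09, 9.46, 9.57 and 10.6 FPKM, with ratios of 0.05 and 0.14. *Gabarapl2* (chr8:111940660-111955711) stood apart from its relatives at 40.0, 24.2, 41.3 and 25.4 FPKM. Its FPKM was 39.4% lower with GSK-J4 without AA and 38.5% lower with AA, and it was 0.29 and 0.27 below the genes nearest in expression. Together the 4 ATG8 genes summed to 153, 136, 160.2 and 143 FPKM.

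Among the cargo receptors, *Sqstm1* (chr11:50174854-50210819), which encodes p62, was at 100.2, 157, 105 and 203 FPKM. Its FPKM was 1.57-fold higher with GSK-J4 without AA and 1.93-fold higher with AA, and its log2 ratios were 1.28 and 1.53 above the median of the genes nearest in expression. Exons of *Mrnip* on the opposite strand overlap 580 bases of *Sqstm1*. *Nbr1*, a receptor of similar build, had ratios of -0.02 and 0.12 at 21.8 to 23.8 FPKM. *Optn*, a receptor of damaged mitochondria and bacteria, was at 1.54, 1.86, 2.19 and 2.46 FPKM, with ratios of 0.17 and 0.12.

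*Tfeb* (chr17:47737039-47792411) is the MiT/TFE gene with a value. It was at 23.9, 10.9, 24.9 and 10.2 FPKM, so both GSK-J4 libraries were below both DMSO libraries. Its FPKM was 54.5% lower with GSK-J4 without AA and 58.9% lower with AA, the lowest ratios of the list in both comparisons (-1.07 and -1.21), and 0.78 and 0.96 below the genes nearest in expression. The transcript of the factor was thus lower in the same libraries in which 10 and 11 of the 11 lumen genes were higher. TFEB protein and its location, through which its activity is known to be controlled, were not measured in these libraries.

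**Figure D3:**
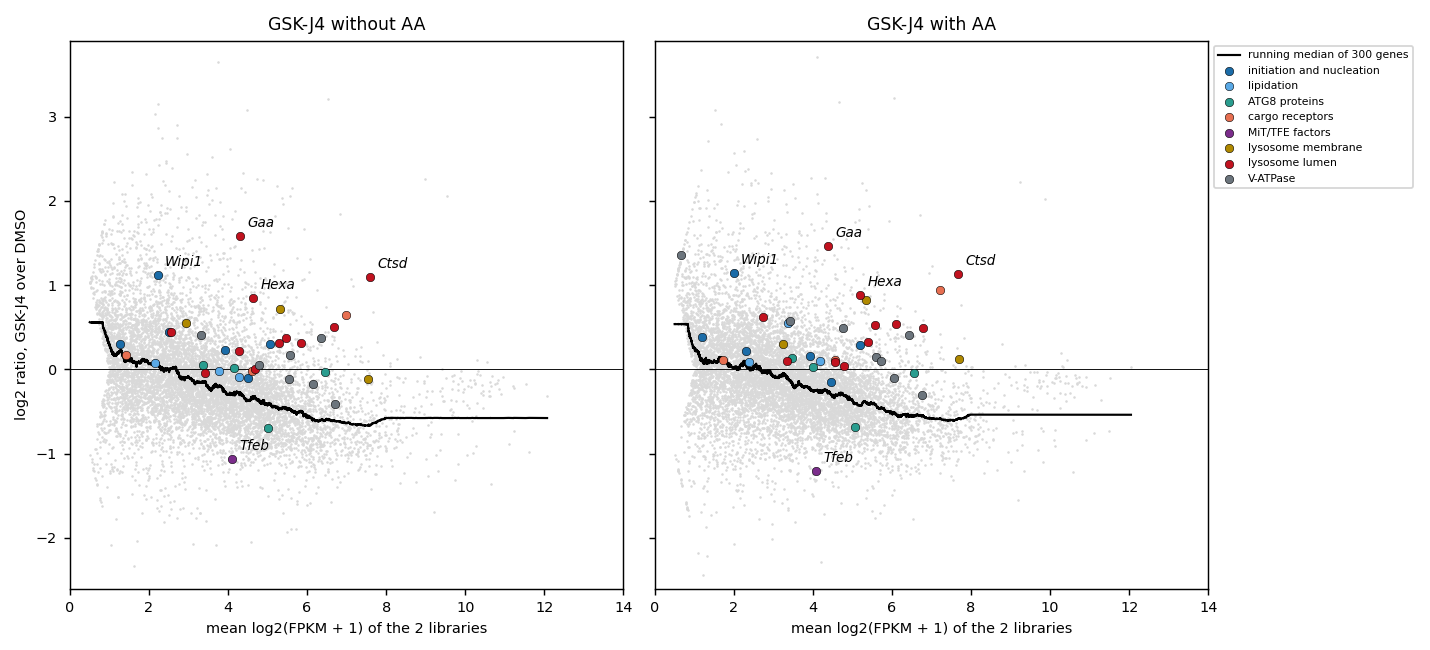
Log2 ratio of GSK-J4 over DMSO against mean log2(FPKM + 1) of the libraries compared, without AA (left) and with AA (right), with all genes in grey, the running median of 300 genes as a line and the members coloured by role. The line falls below 0 as expression rises, and 36 of 38 members without AA and 37 of 39 with AA lie above it. Of all genes, 50.3% lie above it without AA and 50.3% with AA.

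A total of 5 members have more than 1 row, each a group of transcripts with 1 coding sequence. Both rows of *Sqstm1* were higher with GSK-J4, with log2 ratios of 0.63 and 0.69 without AA and of 0.93 in both rows with AA. Both rows of *Lamp2* were higher too, with log2 ratios of 0.53 and 0.94 without AA and of 0.66 and 1.01 with AA. In *Psap*, the major row had ratios of 0.59 and 0.56, and the minor one had -0.23 and -0.01. The 3 rows of *Atp6v0a1* scattered between -0.31 and 2.01 without AA and lay between 0.16 and 1.02 with AA, and those of *Atg16l1* had ratios of -0.19 and 0.55 without AA and of 0.75 and -0.27 with AA. The values of *Sqstm1* and *Lamp2* thus rest on rows that moved together, whereas those of *Atp6v0a1* without AA, and of *Atg16l1* in both comparisons, are sums of rows of either sign.

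The GSK-J4 comparisons share no library. Spearman's rho between their ratios was 0.79 across the 39 members, with the same sign in 33 of them. Across 9363 genes it was 0.826, with the same sign in 7976, so the members were near the share of all genes. Without *Atp6v1h*, the members' correlation was 0.85 (n = 38). These are correlations across genes, which are not independent replicates. The median size of the difference between the ratios was 0.11 in the members and 0.13 in all genes.

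AA treatment was compared with PBS across the tables. In DMSO, the members' median log2 ratio was 0.04, compared with -0.05 for all genes, and 1 of 38 members was at least 1.5-fold higher (background 2.09%) and 1 lower (background 2.22%). The higher one was *Ctsa*, at 17.1 FPKM in PBS+DMSO and 26.3 in AA+DMSO, a ratio of 0.60, and the lower one was *Atg16l1*, a ratio of -0.67. In GSK-J4, *Ctsa* was at 20.0 without AA and 27.2 with AA, a ratio of 0.42, while *Atg16l1* had -0.10. GENCODE M21 places exons of *Neurl2* and *Pltp* over 324 and 311 bases of *Ctsa* on the opposite strand. In GSK-J4, the median was 0.10, compared with -0.02 for all genes, and 1 of 39 members was higher (background 1.71%) and none lower (background 2.54%). That member was *Atp6v1h*, listed at 0.000812 and 1.55 FPKM. *Hexa* was just under the threshold in both AA comparisons, as given above, and *Optn* had ratios of 0.33 and 0.28. For *Sqstm1*, the AA ratio was 0.07 in DMSO and 0.37 in GSK-J4, and for *Tfeb* it was 0.05 and -0.08.

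A wider list of 118 genes of the pathway, none of them members, has 99 with a value. Its 24 other lysosomal enzymes had a median log2 ratio of 0.48 without AA (22 of the 23 that passed the filter above 0, 8 at least 1.5-fold higher and none lower) and of 0.42 with AA (20 of 22 above 0, 8 higher and none lower). The share of all genes that were 1.5-fold higher was 11.6% without AA and 10.1% with AA. The share 1.5-fold lower was 19.3% and 17.8%, and the share above 0 was 37.0% and 37.8%. The 19 other genes of the autophagy machinery had medians of -0.08 and -0.17, with 8 of 19 above 0 in each comparison. *Atg4a*, counted above 0 in both, is placed at chr3:103643943-103646065, and whether that short locus is the gene itself was not checked. *Atg4c* was listed at 0 in AA+GSK-J4, which can be a failed estimate. The 9 genes of selective autophagy had medians of -0.14 and -0.16. Other V-ATPase genes had medians of -0.01 and -0.02 (n = 9), lysosome membrane and delivery genes of 0.10 and 0.15 (n = 18), and genes of mTORC1 and its upstream regulators of -0.15 and -0.12 (n = 20). Lysosomal enzymes outside the members thus had positive medians like those of the lumen members, and stayed above the genes nearest in expression by a median of 0.53 and 0.48. Both lists were chosen with earlier results of these data known, so the wider list is not an independent check. The negative medians of the machinery, selective autophagy, V-ATPase and mTORC1 groups depend on the scaling, since relative to the nearest genes they were 0.15 and 0.06, 0.19 and 0.17, 0.48 and 0.41, and 0.23 and 0.14.
Over the whole wider list, 17 of 98 genes passed 1.5-fold upward (background 11.6%) and 4 downward (background 19.3%) without AA, and 15 of 97 passed it upward (background 10.1%) and 4 downward (background 17.8%) with AA. At 2-fold in both comparisons, 3 genes of 98 (3.06%) were higher, close to the share of all genes (3.02%), and none were lower. *Man2b1* (chr8:85083269-85099045), the lysosomal alpha-mannosidase, was at 12.6, 63.6, 15.9 and 48.3 FPKM, with log2 ratios of 2.25 and 1.55. *Sesn2* and *Ddit4*, whose products restrain mTORC1 under stress, had ratios of 1.06 and 1.08, and of 3.21 and 3.22. mTORC1 is known to hold back both ULK1 and TFEB, but its activity was not measured.

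**Figure D4:**
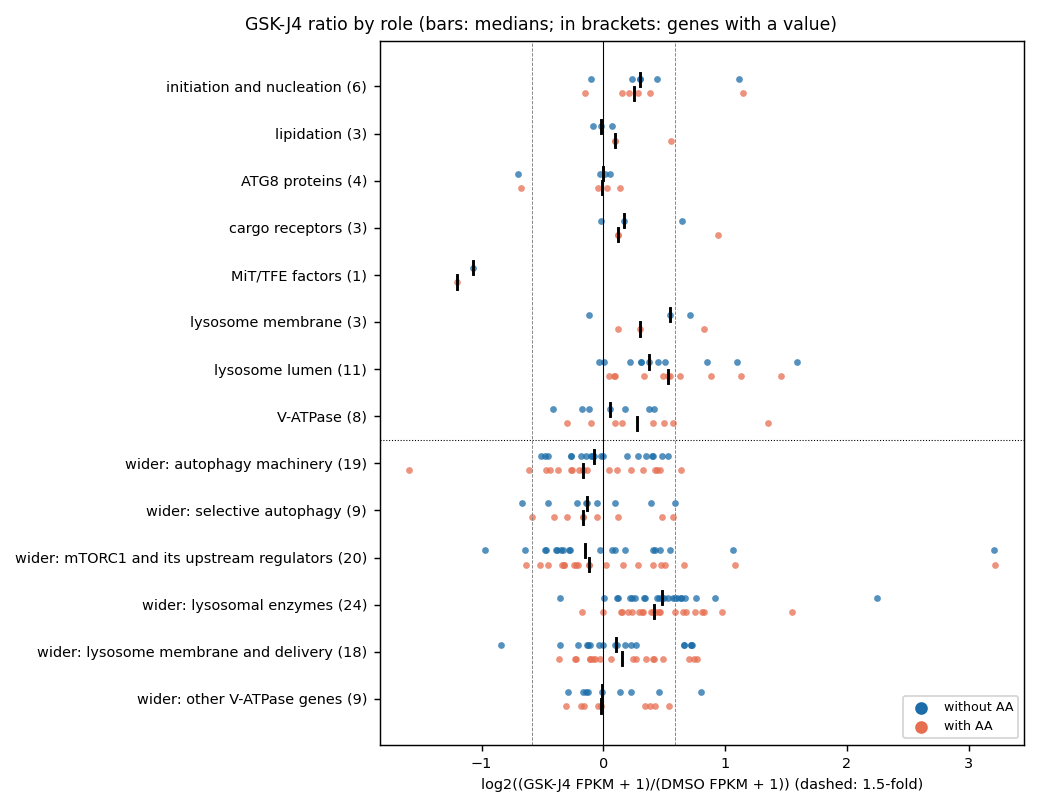
Log2 ratio of GSK-J4 over DMSO for the members (above the dotted line) and the wider list (below it), by role, with 1 point per gene that passed the filter, blue without AA and orange with AA, and a black bar at each median. Lysosome lumen members and other lysosomal enzymes lie mostly to the right of 0, and the machinery and mTORC1 groups lie on both sides. The V-ATPase members with AA include *Atp6v1h*, which was listed at 0 with DMSO.

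The label of the cells was checked against marker genes. All 8 ESC markers had a value, led by *Pou5f1* at 867 FPKM in PBS+DMSO, and they summed to 2150, 1335, 1924 and 1209 FPKM. Of the 8 feeder fibroblast markers, 4 had a value, and their sum was 21.0, 30.2, 19.5 and 26.2 FPKM, of which *Acta2* made up most. *Col1a1* and *Col1a2* were between 2.11 and 4.28 FPKM in all libraries, and none of the 4 was at 0. Of the 6 markers of primitive endoderm, *Sox7* had a value, at 0.70 to 1.61 FPKM. The fibroblast sum was higher in both GSK-J4 libraries, as were the lumen genes, and *Acta2* accounted for most of the difference (12.9, 21.4, 12.0 and 17.8 FPKM). Of the 4 fibroblast markers, 3 had a log2 ratio above 0 in each comparison, where 37.0% and 37.8% of all genes did. Their medians were 0.29 without AA and 0.23 with AA, and *Col1a1* had 0.46 and 0.29. The 1 below 0 was *Thy1* without AA (-0.43) and *Col1a2* with AA (-0.18). The part of these cells in the values of the lumen genes was not tested. In RNA of a whole culture, fewer cells of a type and less RNA per cell cannot be told apart.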

How the data were processed

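RNA-Seq was performed on 4 cultures of female LF2 ESCs, 1 per condition, grouped by their labels. The authors removed duplicates from single-end reads and used TopHat2 on mm10, Cufflinks2 and CummeRbund, and the FPKM values they deposited are per coding sequence group in 2 tables (11033 rows each). The FPKM columns are headed as log10 but hold linear values. The deposited p-values, q-values and fold changes are the authors' comparisons and were not used. Where a gene has many reads, removing duplicates can also take away true fragments.

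FPKM was summed per gene, and the 157 genes with a failed estimate were left out, none of them a member. Log2 ratios used a pseudocount of 1 and the genes at an FPKM of 1 or more in 1 of the libraries compared. The members and lists were chosen with earlier results of these data known. Values in all 4 libraries are given for members at least 1.5-fold changed by GSK-J4 in both comparisons or by AA, the most abundant member of each role, and paralogs that moved in opposite directions. Other members given in this way were chosen after their values were seen. Wider-list genes are named if at least 2-fold changed in both. Further genes named are markers and overlapping genes.

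The tables give no read counts. Low values move in steps, which place the depth of AA+DMSO at 0.796 of PBS+DMSO (14.7% of 368 low genes on the steps), but a depth of 1.59 had 12.0% on its steps and the other libraries could not be settled. The alternatives were pseudocounts of 0.1 and 5, other filters, 4 ways of scaling or centring, the highest row per gene, genes with a failed estimate kept, and a 2-fold threshold. The calculation was tested on simulated data. Python 3.11.15, numpy 2.4.6, pandas 2.3.3 and matplotlib 3.10.9 were used.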

Additional observations from a re-analysis of the deposited data

Results flagged for a closer look

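*Atg16l1* and *Atg2b* are given here because their GSK-J4 ratios had opposite signs without and with AA and lay at least 0.5 apart on the log2 scale. For *Atg16l1*, the ratio without AA was near 0 (-0.02) and ran from -0.19 to 0.34 over the settings tried, so the opposite sign depends on the processing. The difference was not tested, as each condition has 1 library. For *Atg16l1* the ratio was higher with AA by 0.58 on the log2 scale, and the AA+DMSO library, at 7.57 FPKM, was the one that stood apart from 12.7, 12.5 and 11.6. For *Atg2b*, a lipid transfer protein of the growing autophagosome and a gene of the wider list, the difference was -0.77. In cells without AA it was at 1.95 FPKM with DMSO and 2.91 with GSK-J4, and in cells with AA at 6.63 and 4.91.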

How the results depend on the processing

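The median log2 ratio of the members stayed above that of all genes under every setting run, by 0.25 to 0.51 for GSK-J4 without AA, 0.24 to 0.55 with AA, 0.07 to 0.10 for AA in DMSO and 0.11 to 0.12 for AA in GSK-J4. With GSK-J4 without AA, 25 of 38 members were above 0 and 2 (*Gabarapl2* and *Tfeb*) below 0 under every setting, and 11 took either sign. With AA the numbers were 33, 2 and 4 of 39. The 4 ways of scaling or centring raised the median of all genes. It went from -0.17 to between 0 and 0.16 without AA, and from -0.16 to between 0 and 0.14 with AA. These settings therefore tend to carry ratios just below 0 across it and to keep those above 0. The share of all genes that kept their sign was not calculated, so no background stands beside these numbers. No member past 1.5-fold changed sign. The size of the medians and the counts depended on the scaling, which by its construction moves all genes. The median without AA became 0.37 when centred on the median of all genes, 0.46 with upper-quartile scaling, 0.54 with the same total and 0.47 when centred on the running median. With AA it became 0.37, 0.42, 0.48 and 0.56 in the same order. Members 1.5-fold higher without AA numbered 11, 15, 18 and 14, and with AA 14, 15, 18 and 18, with 1 lower each time in both comparisons. Of all genes, 16.7%, 18.2%, 21.5% and 12.5% were then higher without AA, and 14.8%, 16.6%, 19.3% and 11.2% with AA. For AA in DMSO, and for AA in GSK-J4, 2 members were higher under each of these 4 settings. Of all genes, 2.34% to 2.53% were then higher for AA in DMSO and 1.78% to 1.98% for AA in GSK-J4.

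A pseudocount of 5 left 5 members higher with AA, where the share of all genes was also smaller (3.5%). It left 0 past the threshold for AA in DMSO (background 0.305% higher and 0.362% lower) and 0 higher for AA in GSK-J4 (background 0.196%). A pseudocount of 0.1 gave 2 higher for AA in GSK-J4 (background 2.85%). When the filter asked for an FPKM of 5 in 1 library, or of 1 in both, 0 members were higher for AA in GSK-J4 (background 0.612% and 0.919%). The highest row per gene gave 2 lower for AA in DMSO (background 2.37%). At 2-fold, 3 members were higher and 1 lower without AA (background 4.96% and 3.5%), and 4 higher and 1 lower with AA (background 4.13% and 3.38%). For AA in DMSO, 0 passed 2-fold in either direction (background 0.565% and 0.735%). Without *Atp6v1h*, an alternative chosen after seeing the data, 0 were higher for AA in GSK-J4 (background 1.71%) and 7 higher with AA (background 10.1%). No paired analysis was possible because each condition has 1 library. The lack of replicates and of read counts limits the precision of every ratio.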

Other observations

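*Bnip3*, a mitophagy receptor of the wider list and a known target of the hypoxia response, was lower with AA both in DMSO and in GSK-J4. It was at 46.4 FPKM in PBS+DMSO and 19.7 in AA+DMSO, and at 44.6 in PBS+GSK-J4 and 14.6 in AA+GSK-J4, with log2 ratios of -1.19 and -1.54 for AA. The comparison crosses the tables, and the gene was chosen after its values were seen. Its GSK-J4 ratios were -0.06 without AA and -0.41 with AA.

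The 5 *Lamtor* genes, which encode the Ragulator complex that anchors mTORC1 to the lysosome, were also chosen after their values were seen. All 5 were lower with GSK-J4 in both comparisons as deposited, with medians of -0.38 and -0.32. Genes of similar expression stood at -0.51 and -0.46, and 4 of the 5 lay above them in each comparison, so the direction depends on the scaling.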
